A study of Canis lupus familiaris with 22 samples.

Results

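Benign mammary tumours of dogs were compared with healthy mammary tissue by gene expression on Agilent canine (v2) arrays. The comparison took all arrays whose titles name a benign or a healthy sample, which are 10 of the 22 arrays of the series and come from 5 dogs. The benign group held 6 arrays of 3 dogs, from tumours removed at surgery, and the healthy group held 4 arrays of 2 dogs without a tumour. The arrays with the letters a and b are duplicates of a numbered sample, so they were averaged and the dog was the replicate. No genotype, treatment, age or time point is given in the labels for these groups, and the benign tumours were placed in their class by histology. The study's text counts 1 more benign and 1 more healthy dog than the labels do, and which histological type each benign array holds is not given in the labels. The question was which genes differ between benign tumour and healthy gland, and it was asked of each healthy dog separately as well as of both.

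The mammary gland is a tree of ducts lined by an inner luminal layer, which carries keratins, hormone receptors and, in lactation, milk proteins, and an outer myoepithelial layer that contracts. Around the ducts lie fat, collagen fibres, vessels and resident macrophages. In dogs, benign mammary tumours are mainly adenomas and mixed growths that keep both epithelial layers, and macrophages and other leukocytes can enter them. The genes of interest therefore belong to the epithelium, to the stroma, and to inflammation, which runs through chemokines that draw in cells, cytokines that activate them, acute phase proteins, and proteases that cut the matrix.

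The level of a gene is given throughout as the log2 processed signal minus the 75th percentile of its array, so that 0 is the 75th percentile and a step of 1 is a doubling of signal. Between 71.5% and 83.2% of spots were well above background on the benign arrays and between 62.2% and 71.4% on the healthy ones. The 75th percentile stood at 23.8 to 45.3 times the median background on the benign arrays and at 8.62 to 18.7 times on the healthy arrays, so that dim genes had less room above background in healthy tissue. The arrays of a dog correlated at 0.984 to 0.988 over all probes, and 46.9% of the 27088 genes tested differed by more than 1 log2 between the 2 healthy dogs. That share was 27.5% to 31.0% between benign dogs, 18.6%, 31.1% and 33.0% between healthy dog 2 and benign dogs 1 to 3, and 46.0% to 49.6% between healthy dog 1 and the benign dogs. The arrays lay on 5 slides, 2 of which held both groups.

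The tissue label was checked against marker genes. The epithelial genes KRT19, CDH1 and KRT14 were well above background on all 10 arrays. KRT19, a luminal keratin, lay at 6.67, 3.95 and 2.21 in benign dogs 1 to 3 and at 3.34 and 5.19 in healthy dogs 1 and 2. CDH1, the adhesion protein of epithelial cells, lay at 4.20, 2.65 and 3.65 against 2.70 and 3.22, and KRT14, a keratin of the myoepithelial layer, at 4.87, 1.79 and 8.37 against 3.92 and 5.002. The groups overlapped in all 3 genes. Both healthy samples also held the genes of another organ at high levels, which is described next.

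Genes of the exocrine pancreas, which makes digestive enzymes, were the brightest difference between the groups. Of 39 such genes listed, 8 could be named on the array and tested. All 8 lay more than 1 log2 below each healthy dog in all 3 benign dogs, where 1.33% of all genes did. All 8 were higher in healthy dog 1 than in healthy dog 2. CPB1, a pancreatic carboxypeptidase, lay at -3.95, -4.40 and -5.53 in the benign dogs and at 10.11 and 7.18 in healthy dogs 1 and 2. Its difference was -13.27 ± 0.99 (log2, SE, n = 3 and 2; limma, adjusted p = 0.0435). PLA2G1B, the pancreatic phospholipase, lay at 0.38, -0.58 and -0.93 against 10.18 and 8.85, a difference of -9.90 ± 0.66 (limma, adjusted p = 0.0402). CLPS, the colipase that helps lipase bind fat, lay at -0.03, -2.11 and -1.15 against 9.95 and 8.67, a difference of -10.40 ± 0.77 (limma, adjusted p = 0.0435). No benign dog came near either healthy dog in these genes.

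The other 5 exocrine genes did not pass the test. REG3A was not well above background on any benign array and stood at 8.74 and 3.49 in the healthy dogs, which puts it at least 3920-fold lower in benign tumours. That bound sets the mean healthy level against the lowest signal well above background on each benign array, or the gene's own signal where that was higher, and the limma adjusted p was 0.106. GP2, the main glycoprotein of the enzyme granules, lay at 9.19 and 4.58 in the healthy dogs and between -4.99 and -2.98 in the benign dogs. PNLIPRP1, a lipase-related protein, and KLK1, tissue kallikrein, the latter named after its values were seen, had differences of -11.11 ± 1.41 and -7.92 ± 1.30 (log2, SE). CELA1, an elastase, had the smallest gap of the list, 1.73 log2 between healthy dog 2 at 1.99 and the highest benign dog at 0.26. Its 2 other probes gave larger differences, of -8.14 and -8.12, with gaps of at least 4.60 log2. The spots of the exocrine list gave 3.50% and 3.49% of all signal on the arrays of healthy dog 1, 1.04% and 1.03% on those of healthy dog 2, and between 0.00293% and 0.00443% on the benign arrays.

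Hormone genes of the pancreatic islets followed the same order. Of 13 listed, 6 were tested, and all 6 were higher in healthy dog 1 than in healthy dog 2. In all benign dogs 4 lay more than 1 log2 below each healthy dog, where 1.33% of all genes did. INS, insulin, lay at -2.97, -4.33 and -3.88 in the benign dogs and at 9.36 and 4.64 in the healthy dogs. SST, somatostatin, was not well above background on any benign array and lay at 5.20 and 0.26 in the healthy dogs, at least 375-fold lower in benign tumours. PPY, pancreatic polypeptide, lay at 6.30 and 0.61 in the healthy dogs and between -3.06 and -2.15 in the benign dogs. IAPP, amylin, lay at 2.59 and -2.45 against -6.11 to -4.50. GCG, glucagon, did not hold, with benign dog 2 at 2.19 between healthy dog 1 at 2.83 and healthy dog 2 at -2.11, and the other benign dogs at -5.86 and -6.02.

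**Figure D1:**
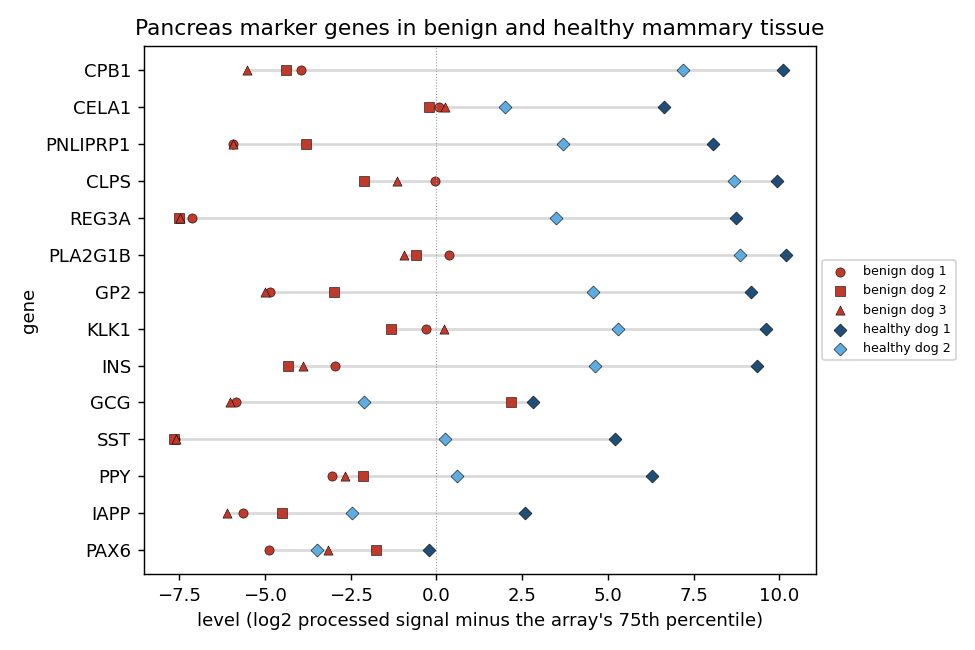
Levels of the 8 exocrine and 6 islet genes tested, 1 point per dog (mean of its arrays), on the log2 scale relative to the 75th percentile of the array; red marks benign dogs, blue healthy dogs. In all 8 exocrine genes both healthy dogs sit to the right of the benign dogs and healthy dog 1 sits to the right of healthy dog 2; GCG has benign dog 2 at 2.19.

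In the fit of 3 benign against 2 healthy dogs, limma called 9 of 27088 genes at an adjusted p of at most 0.05. All 9 were lower in benign tumours, which is 0.0332% of the genes tested, and 0 were higher (0%). At an unadjusted p of at most 0.05, 846 genes were higher and 869 lower. The study's methods name a paired test, which was not run here. An unpaired test in its place called 0 after Benjamini-Hochberg or Storey correction. Beside CPB1, CLPS and PLA2G1B, the called targets were 6 that the tables used here do not name. The targets ENSCAFT00000018780 and ENSCAFT00000020045, among those 6, lay at no more than -2.71 in any benign dog and at 7.53 or above in both healthy dogs. All 9 were higher in healthy dog 1 than in healthy dog 2, so the called genes share the order of the exocrine genes. The calls came to 0 with the slide as a block, with the mean over probes, without the filter on dim probes, and on leaving out any dog except healthy dog 2, without which 498 were called. An exact rank test of 3 against 2 dogs cannot go below a two-sided p of 0.2 for any single gene.

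The number of genes that set the benign dogs apart depended on which healthy dog was the reference. All 3 benign dogs lay more than 1 log2 above healthy dog 1 in 3193 genes (11.8% of those tested) and more than 1 log2 below it in 3981 (14.7%). Against healthy dog 2 the counts were 562 higher (2.07%) and 1034 lower (3.82%). Against each of both healthy dogs, 275 genes were higher (1.02%) and 360 lower (1.33%). The split leaned further to lower genes with other handling of background, 98 higher and 355 lower with normexp correction and 103 and 345 with the deposited table of median signals. With no margin, so that the groups merely did not overlap, 3331 genes were higher and 3203 lower. Genes with a symbol are a small and selected part of the array, 1263 of the 27088 tested, and 35 of them (2.77%) held as higher and 39 (3.09%) as lower. All list members come from this part, whose shares were higher than those over all genes. In it, 20.7% lay more than 1 log2 above healthy dog 1 and 17.3% below. Against healthy dog 2 it was 4.59% and 6.65%, and without overlap 216 of the 1263 were higher and 152 lower. None of the 35 passed the limma test, with adjusted p from 0.371 to 0.714, so their levels are given as measured distances between dogs.

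**Figure D2:**
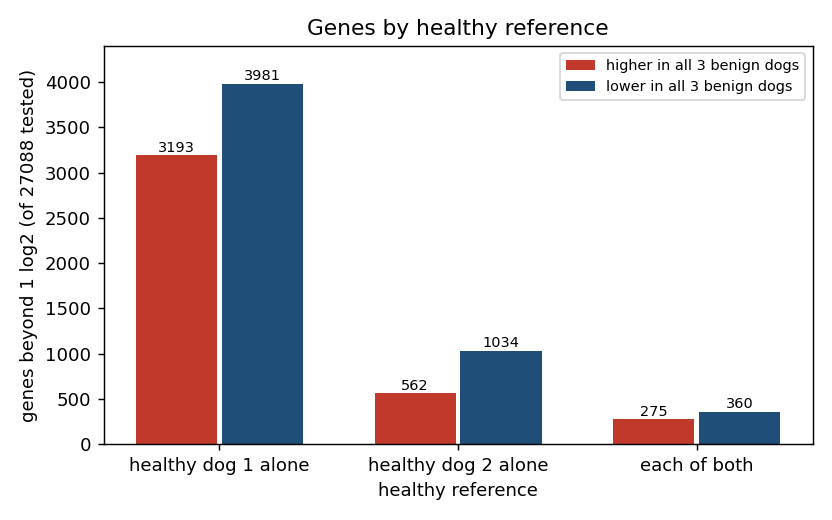
Number of genes in which all 3 benign dogs lay more than 1 log2 above (red) or below (blue) healthy dog 1, healthy dog 2, or each of both, of 27088 tested. The bars fall from 3193 and 3981 against healthy dog 1 to 275 and 360 against each of both.

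Some genes even lay on opposite sides of the 2 references. All benign dogs were more than 1 log2 above healthy dog 1 and more than 1 log2 below healthy dog 2 in 91 genes, and the reverse held in 10. The 7 with a symbol in the first set, all named after their values were seen, were DCN, VCAM1, HPGDS, GH1, CD209, CTSK and MT4. CTSK, a collagen-cutting protease, lay at 3.02, 3.39 and 2.97 in the benign dogs, at -0.79 in healthy dog 1 and at 4.60 in healthy dog 2. DCN, the collagen-binding proteoglycan decorin, lay at 5.52, 6.39 and 6.84 against 4.50 and 8.17.

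Myeloid genes and chemokine genes each had 6 members above both healthy dogs. Of 41 genes of macrophages and other myeloid cells, 13 were tested, 6 of them lay more than 1 log2 above each healthy dog in all benign dogs (1.02% of all genes did), and none lay below. The median difference of the 13 was 2.34 log2, beside 0.006 over all genes tested, and it was 3.75 against healthy dog 1 and 1.52 against healthy dog 2. All 13 were higher in healthy dog 2 than in healthy dog 1, and none passed the limma test. In bulk tissue, more cells of a type and more RNA per cell cannot be told apart.

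S100A8, a calcium-binding protein stored in neutrophils and monocytes, had the widest gap of the genes with a symbol that were higher in benign tumours, 3.71 log2. It lay at 5.35, 5.66 and 8.45 in benign dogs 1 to 3 and at 0.03 and 1.64 in the healthy dogs, a difference of 5.65 ± 1.1 (limma, adjusted p = 0.64). FCGR1A, the high-affinity receptor for IgG, lay at 1.59, 2.86 and 2.58 against -2.26 and -1.13, a difference of 4.04 ± 0.62 (limma, adjusted p = 0.371). Benign dog 3 was highest for S100A8 and benign dog 2 for FCGR1A, and the groups were well apart in both.

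CD86, a costimulatory protein of antigen-presenting cells, lay at 2.58, 2.67 and 3.30 in the benign dogs and at -1.04 and 0.52 in the healthy dogs. SLC11A1, the metal transporter of the macrophage phagosome, lay at 4.34, 5.03 and 5.58 against 0.40 and 2.55. TYROBP, the adaptor through which receptors such as TREM1 and TREM2 signal, lay at 3.34, 3.51 and 4.40 against -0.18 and 2.01. The fit gave 3.11 ± 0.63, 3.51 ± 0.78 and 2.84 ± 0.78 for these 3 genes, in that order (log2, SE). FCER1G, the shared signalling chain of Fc receptors, lay between -1.92 and -0.69 against -5.11 and -3.20 and passed the background call on 2 of 4 healthy arrays.

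Of the other 7 myeloid genes, 6 lay more than 1 log2 above healthy dog 1 alone, where 11.8% of all genes lay above that dog. CD163, the haemoglobin scavenger receptor of tissue macrophages, lay at 0.94, 1.44 and 1.85 in the benign dogs, at -2.02 in healthy dog 1 and at 1.91 in healthy dog 2. CTSS, a protease of antigen processing named after its values were seen, lay at 3.69, 3.003 and 4.47 against 0.45 and 3.09. In both, healthy dog 2 lay within or above the range of the benign dogs.

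Serum amyloid A, an acute phase protein made in the liver and by inflamed tissue, is represented by LOC751814 and LOC403585, a pair of genes that share the synonym SAA. LOC751814 lay at 4.48, 4.69 and 5.96 in the benign dogs and at 0.26 and 1.68 in the healthy dogs, a difference of 4.07 ± 0.71 (limma, adjusted p = 0.489). LOC403585 lay at 5.05, 5.18 and 6.51 against 0.94 and 2.37. The dogs stood in the same order for both, and because they may be near copies their probes may not tell them apart. SERPINA1, the acute phase protease inhibitor, lay at 4.75, 6.15 and 6.35 against 2.91 and 3.75, and its gap of 0.99 log2 fell just short of the margin.

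Chemokines draw leukocytes into tissue. Of 51 chemokine and receptor genes listed, 28 were tested, and 6 lay more than 1 log2 above each healthy dog, where 1.02% of all genes did. The median difference was 1.17 log2 over the 28 and 0.006 over all genes. CCL2, which attracts monocytes, lay at 3.78, 6.51 and 5.26 in the benign dogs against -0.37 and 1.92, a difference of 4.41 ± 1.04. CCL8, a related attractant, lay at 0.17, 3.83 and 2.22 against -3.26 and -1.93. CXCL8, which attracts neutrophils, lay at 0.32 in benign dog 1, at 5.47 and 5.44 in benign dogs 2 and 3, and at -2.37 and -1.15 in the healthy dogs. Benign dog 1 had the lowest level of all 3 chemokines among the tumours and was still above both healthy dogs.

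CCL20, which attracts dendritic cells and lymphocytes through CCR6, differed less but alike against both references. It lay at 0.06, 1.08 and 0.46 in the benign dogs and at -1.33 and -1.49 in the healthy dogs, a difference of 1.95 ± 0.50. CCL17, a ligand of CCR4, lay at 1.59 in benign dog 2 and at -2.87 and -2.72 in the other benign dogs, against -6.86 and -3.90, so that benign dog 2 set most of its mean difference. CCR1, a receptor of several of these ligands, was dim, at -4.85 to -4.32 in the benign dogs, and passed the background call on 1 of 4 healthy arrays. At the other end, 3 genes of the list lay more than 1 log2 below healthy dog 2 alone, where 3.82% of all genes lay below that dog. Another 3 lay more than 1 log2 below healthy dog 1 alone, where 14.7% of all genes did.

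Among 32 interleukins and cytokines, 19 were tested and 4 held above both healthy dogs (1.02% of all genes did), 2 of them without a healthy array well above background. IL6, which drives the acute phase response, lay at -2.29, 0.95 and 0.43 in the benign dogs against -5.12 and -3.86, a difference of 4.19 ± 1.08. The groups overlapped in IL6 with normexp background correction. IL18, which inflammasomes activate, lay at -0.62, -0.50 and 0.72 against -3.38 and -1.62, with a gap of 1.00 log2. Its soluble inhibitor IL18BP, which is in none of the lists, lay at 2.98, 2.50 and 3.50 against -0.91 and 0.26, a difference of 3.32 ± 0.59. CASP4, an inflammatory caspase that senses bacterial lipopolysaccharide, lay at 1.23, 0.85 and 2.68 against -2.20 and -0.76.

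IL1A, an alarm cytokine released by damaged cells, was well above background on all 6 benign arrays and on 0 healthy arrays. It lay at -2.72, -2.55 and 2.15 in the benign dogs, which is at least 14.6-fold above healthy tissue by the bound. With normexp background correction its groups overlapped, and with the deposited median signals its gap was 0.62 log2. IL13, a cytokine of type 2 immunity, was measured on all 6 benign arrays at -4.22 to -4.05 and was at least 1.71-fold higher. The direction turned for IL13 with normexp background correction, to -0.55 log2, and with the deposited median signals, to -0.078.

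Matrix metalloproteinases cut collagen and other matrix proteins. Of 19 such proteases and their inhibitors, 8 were tested and 2 held above both healthy dogs (1.02% of all genes did), with a median difference of 3.58 log2. MMP9, a gelatinase, lay at 0.99, 0.98 and 2.27 in the benign dogs against -6.22 and -2.19, a difference of 5.62 ± 1.22. Of its 3 other probes, 1 gave 5.47, and the others, above background on 0 and 3 of 10 arrays, gave -0.31 and 0.21. MMP12, the macrophage elastase, lay at 1.74, -1.60 and 2.82 against -4.32 and -4.23. MMP3, a stromelysin, varied widely among the tumours, at -6.56 in benign dog 1 and at 3.98 and 3.16 in benign dogs 2 and 3. It was well above background on 4 of 6 benign arrays and on 0 healthy arrays. Benign dog 1 lay only 0.29 log2 above healthy dog 1. The bound of at least 34.4-fold applies to the benign mean, which benign dogs 2 and 3 set.

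**Figure D3:**
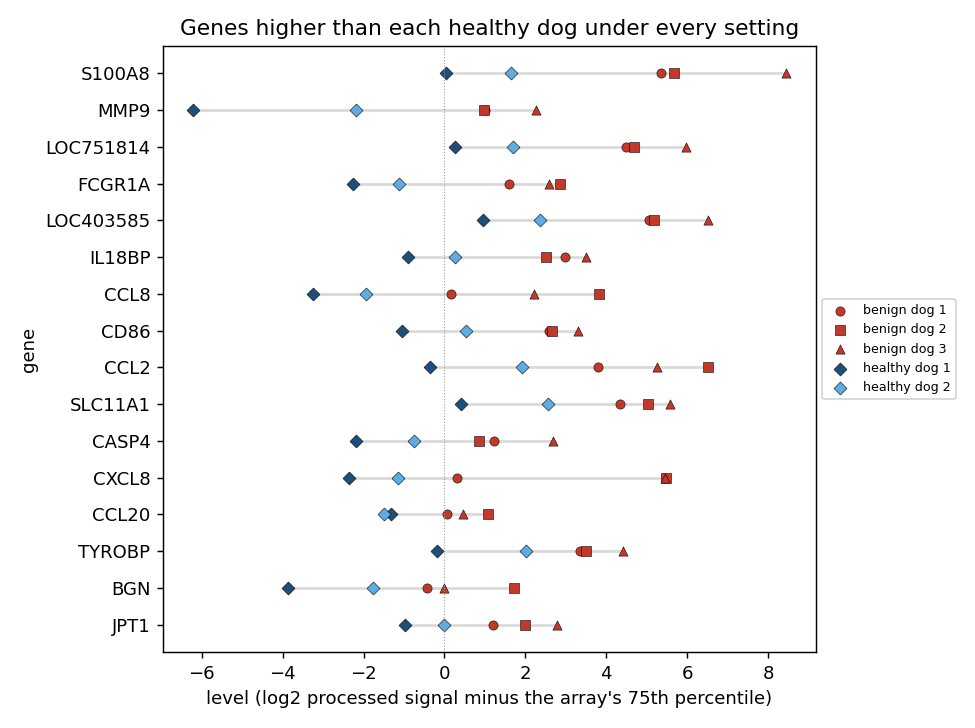
Levels of the 16 genes with a symbol that lay more than 1 log2 above each healthy dog in all benign dogs in the values as reported and under 7 other settings of scaling, background, probes and arrays; 1 point per dog, log2 relative to the 75th percentile of the array. All red points (benign dogs) lie to the right of both blue points (healthy dogs), and healthy dog 1 is the lowest point in all genes except CCL20.

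Collagen and matrix genes did not behave alike against the 2 references. Of 47 listed, 15 were tested, 9 of them lay more than 1 log2 above healthy dog 1 and 1 below it, where 11.8% and 14.7% of all genes did. Against healthy dog 2, 1 lay above and 2 below, where 2.07% and 3.82% of all genes did. COL1A1, the main fibrous collagen, lay at 4.16, 6.90 and 6.66 in the benign dogs, at 0.71 in healthy dog 1 and at 7.13 in healthy dog 2, and its other 3 probes gave differences from -0.015 to 1.23. COL1A2 lay at 6.36, 7.95 and 8.39 against 3.13 and 9.05. BGN, the proteoglycan biglycan, was the member above both, at -0.43, 1.71 and -0.01 against -3.87 and -1.76, a difference of 3.24 ± 0.93.

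Antigen presentation genes showed the same split. Of 22 dog MHC and antigen presentation genes, 16 were tested, 12 lay more than 1 log2 above healthy dog 1 (11.8% of all genes did) and 0 above healthy dog 2 (2.07%). The groups did not overlap in 8, with 7 higher and 1 lower in the benign dogs, where 12.3% and 11.8% of all genes did not overlap. HLA-DRB1 and DLA-DQB1 were named after their values were seen. HLA-DRB1, the dog class II beta chain also named DLA-DRB1, lay at 7.00, 6.98 and 7.88 in the benign dogs against 3.81 and 5.99, and missed the margin at 0.99 log2. DLA-DQB1, another class II chain, lay at 5.44, 5.28 and 6.39 against 1.81 and 4.42. The class I gene DLA88 lay at 6.55, 5.67 and 6.92 against 3.45 and 6.41, with healthy dog 2 inside the range of the tumours.

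Sensors of microbes were split in the same way. Of 26 pattern recognition and CD40 pathway genes, 9 were tested, 5 of them lay more than 1 log2 above healthy dog 1 (11.8% of all genes did) and 0 above healthy dog 2 (2.07%). TLR2, the receptor for bacterial lipoproteins, lay at 1.79, 0.80 and 1.33 against -3.56 and -0.10, a gap of 0.90 log2 from healthy dog 2. OAS2, an interferon-induced antiviral enzyme, lay at 3.87, 2.71 and 4.63 against -0.45 and 1.90. Of the 5 interferon response genes tested, 4 were beyond 1 log2 above healthy dog 1 and 1 above healthy dog 2, beside the same 11.8% and 2.07%.

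Prostaglandin E2 is made from arachidonic acid by PTGS enzymes and PTGES. PTGES lay at 3.47, 3.81 and 4.80 in the benign dogs against -0.72 and 2.48, a gap of 0.99 log2. PTGS2, the inducible cyclooxygenase, lay at -2.01 in benign dog 1 and at 2.67 and 3.81 in benign dogs 2 and 3, against -3.75 and -2.30. Of the 7 genes of the pathway tested, 3 were beyond 1 log2 above healthy dog 1 and 1 below it (11.8% and 14.7% of all genes were), and 0 above healthy dog 2 (2.07%).

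The cell division genes CCNB2 and BIRC5 were lower in benign dog 1 than in the other tumours, whereas CCND1 was highest in benign dog 1. CCNB2, a mitotic cyclin, lay at -1.98 in benign dog 1 and at 1.72 and 2.22 in benign dogs 2 and 3, against -6.11 and -2.95. BIRC5, survivin, lay at -0.33, 1.98 and 2.27 against -1.01 and -1.60. CCND1, another cyclin, lay at 2.60, 1.06 and 1.19 against 0.85 and 1.06, and its groups overlapped. Of the 4 genes tested, 0 lay more than 1 log2 above each healthy dog, 1 lay above healthy dog 1 alone and 1 above healthy dog 2 alone (11.8% and 2.07% of all genes lay above each).

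The study names 25 regulators of genes in benign tumours, a list chosen on these samples and so no independent evidence of its direction. Of the 12 tested, 8 had no overlap and were higher in the benign dogs (12.3% of all genes were), and 1, TYROBP, lay beyond 1 log2 of each healthy dog (1.02%). Against healthy dog 1 alone, 8 were beyond 1 log2 above (11.8%), and EGF, the epidermal growth factor, lay 4.43 log2 below at its nearest.

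**Figure D4:**
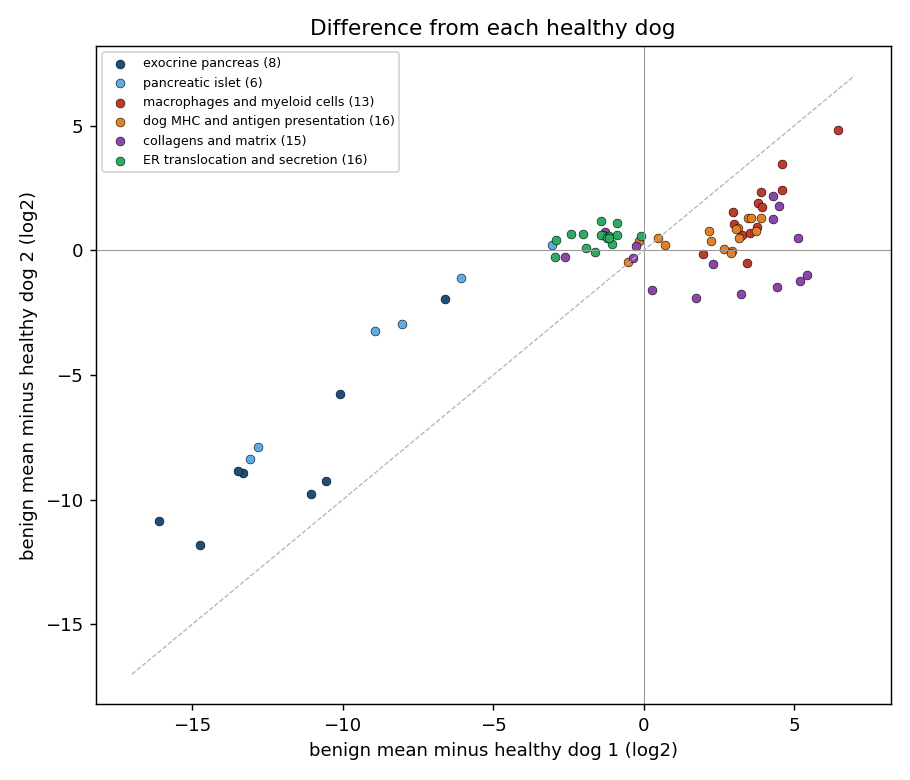
Mean level of the 3 benign dogs minus healthy dog 1 (horizontal axis) and minus healthy dog 2 (vertical axis), both log2, for the tested genes of 6 lists, 1 point per gene; points on the dashed line differ alike from both healthy dogs. Exocrine genes lie far below 0 on both axes, myeloid genes lie mostly above 0 on both, and collagen, MHC and ER translocation genes lie away from 0 mainly on the horizontal axis.

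A further 12 genes with a symbol held as higher were in no list. All were named after their values were seen, except HAVCR1 and SLC23A2. HMOX1, the haem-degrading enzyme induced by oxidative stress, lay at -1.74, 0.23 and 0.34 in the benign dogs against -5.36 and -3.25. JPT1, a microtubule-associated protein formerly named HN1, lay at 1.19, 1.98 and 2.78 against -0.98 and -0.02. PRKCD, a protein kinase C, lay at 0.60, 0.55 and 0.74 against -1.56 and -0.59. RCC1, the nucleotide exchange factor of Ran, lay between -1.41 and -1.26 in the benign dogs and at -2.60 and -2.58 in the healthy dogs.

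TNFRSF18, a costimulatory receptor of T cells, lay at -0.55, -1.18 and -1.39 against -5.58 and -2.54. FKBP1A, a binding protein of tacrolimus, lay at 1.93, 2.77 and 3.28 against 0.93 and 0.76, just inside the margin. HAVCR1, a receptor for phosphatidylserine, lay between -2.89 and -1.71 against -6.74 and -4.63, and the vitamin C transporter SLC23A2 lay between -3.39 and -3.10 against -4.97 and -4.90. SLC7A11, CNTNAP5, CASQ2 and SLC45A2 were well above background on all 6 benign arrays and on 0 healthy arrays. They were at least 3.15, 3.88, 2.23 and 2.44-fold higher in benign tumours, in that order. The groups overlapped in SLC7A11, CNTNAP5, CASQ2, SLC45A2, HAVCR1 and SLC23A2 with normexp correction. With normexp correction the direction turned for SLC23A2, CASQ2 and SLC45A2, and for CCR1 among the chemokine genes, and with the deposited median signals it turned for SLC45A2 and CCR1.

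Of the 360 genes held as lower in benign tumours, 84.7% were higher in healthy dog 1 than in healthy dog 2, and of the 275 held as higher, 78.9% were higher in healthy dog 2 than in healthy dog 1. Healthy dog 1 was thus the farther from the tumours in most genes of both directions, while over all genes tested it was the higher healthy dog in 50.4%. The part of the pancreas signal in each lower gene was not tested. Among the 39 with a symbol, 12 belonged to the exocrine or islet lists. Of the other 27, 22 were higher in healthy dog 1, 19 of them by more than 1 log2, and 7 lay within 1 log2 of each other in the healthy dogs.

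Several of the 19 are genes best known in stomach, pancreas, kidney or endocrine glands. CBLIF, intrinsic factor, which the pancreas secretes in dogs, lay at 8.48 and 4.05 in the healthy dogs and between -6.86 and -5.43 in the benign dogs. TFF2, a trefoil peptide of mucus, lay at 9.98 and 6.62 against -2.03 to -1.53. DNASE1, the secreted nuclease of digestive glands, lay at 8.48 and 3.62 against -7.98 to -5.11. GATM, the first enzyme of creatine synthesis, lay at 8.16 and 3.61 against -5.58 to -1.42. LOC479649 and LOC100687463 had differences of -12.75 ± 1.08 and -12.83 ± 1.36 (limma, adjusted p = 0.0638 and 0.0932). HSD3B2, a steroid dehydrogenase, and UMOD, the urine protein uromodulin, both named after their values were seen, were at least 106-fold and 46.9-fold lower, with 0 benign arrays above background. These genes and TMED11, CGA, FXYD2, PGA, HSD3B2 and UMOD were 2.23 to 5.56 log2 higher in healthy dog 1 than in healthy dog 2.

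The 7 genes that were lower in benign tumours and within 1 log2 of each other in the healthy dogs are described next. Of these, SMOC2, TACR1 and HTR2B were higher in healthy dog 1, by 0.37 log2 at most. SELENOP, the selenium transport protein of plasma, lay at 3.60, 3.81 and 1.65 in the benign dogs and at 5.62 and 6.34 in the healthy dogs, a difference of -2.96 ± 0.78. SMOC2, a calcium-binding matrix protein, lay at 3.22, 2.50 and 1.83 against 4.89 and 4.86, a difference of -2.36 ± 0.56. ALDH1A1, a retinaldehyde dehydrogenase used as a marker of progenitor cells, lay at -1.56, -4.04 and -5.33 against 1.13 and 1.45, a difference of -4.93 ± 1.11. None passed the limma test, with an adjusted p of 0.714 in each, and the groups did not overlap.

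TACR1, the substance P receptor, and HTR2B, a serotonin receptor, were dimmer members of the set. TACR1 lay between -4.12 and -4.01 in the benign dogs and at -2.20 and -2.48 in the healthy dogs. Its other probe gave -1.38, and there the groups overlapped, with benign dog 2 at -3.42 and healthy dog 2 at -3.49. HTR2B lay between -4.79 and -4.23 against -2.67 and -3.04. The 7 also held a pair of muscle genes. CKM, the creatine kinase of muscle, lay between -3.37 and -3.21 against -1.72 and -1.55, and MYH7, the slow myosin heavy chain, lay between -7.16 and -4.94 against -3.82 and -2.98, though its 13 other probes, none of them above background on all 10 arrays, gave differences from -1.10 to 0.66. Outside the 7, PLN, which regulates the calcium pump of muscle, lay at 1.38 in healthy dog 2, at -2.99 in healthy dog 1 and at -8.04 to -4.00 in the benign dogs. Of 5 skeletal muscle genes tested, 2 lay more than 1 log2 below each healthy dog (1.33% of all genes did) and 0 above. MYH1 and MYH2, myosins of fast muscle fibres, had differences of 0.034 and 0.026.

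MAOB, the mitochondrial monoamine oxidase, lay at -2.32, -4.79 and -3.76 in the benign dogs and at 2.77 and 0.72 in the healthy dogs, a difference of -5.37 ± 0.96 (limma, adjusted p = 0.52). Its other probe gave -2.19, with a gap of 0.78 log2 that missed the margin. PDGFA, KLK8, KLK14, ZP3, OR6C4 and GAL3ST1 held with gaps of 1.03 to 1.51 log2 and were 1.48 to 6.54 log2 higher in healthy dog 1 than in healthy dog 2. These 6, HTR2B and PLN were named after their values were seen.

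**Figure D5:**
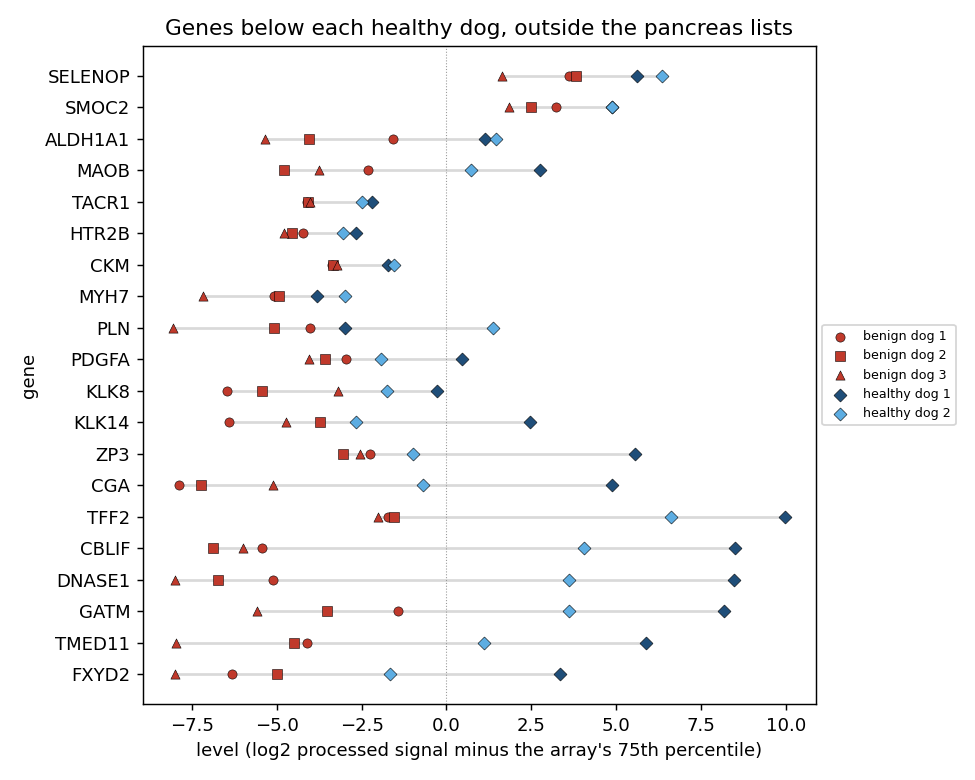
Levels of 20 genes outside the pancreas lists that lay more than 1 log2 below each healthy dog in all benign dogs, 1 point per dog, log2 relative to the 75th percentile of the array. In the upper rows, such as SMOC2 and CKM, the healthy dogs (blue) lie together; in the lower rows, such as CBLIF and GATM, healthy dog 1 lies more than 3 log2 to the right of healthy dog 2.

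Epithelial, milk and fat genes gave no member beyond both healthy dogs. Of 9 luminal, 2 myoepithelial, 3 milk protein and 6 adipose genes tested, 0 lay more than 1 log2 above or below each of them. Over all genes 1.02% lay above and 1.33% below, so a count of 0 in so few genes does not set them apart. LTF, the milk iron-binding protein lactoferrin, lay at 6.16, 1.76 and -0.80 in benign dogs 1 to 3 and at -2.87 and 3.38 in the healthy dogs. LALBA, the milk protein of lactose synthesis, lay at 1.81, -2.99 and -6.15 against -4.41 and 1.51, and CSN2, beta casein, lay at -0.63, -1.86 and -7.64 against -5.90 and -0.46. In all 3 milk genes benign dog 1 was the highest tumour and benign dog 3 the lowest, and healthy dog 1 was far below healthy dog 2. ADIPOQ, the fat hormone adiponectin, lay at 0.02 in healthy dog 2 and at -2.68 in healthy dog 1. The benign dogs, at -2.71 to -2.20, were below healthy dog 2 and level with healthy dog 1 in this gene. LEP, leptin, was instead below healthy dog 1, at -0.38, -1.21 and -0.88 against 0.93 and -1.01. The other LEP probe gave a difference of 2.34. In PPARG the groups overlapped, with a difference of -0.007.

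Genes that carry new proteins into the endoplasmic reticulum, a step on which secretory glands depend, differed by reference in the other direction. All 16 tested were higher in healthy dog 1 than in healthy dog 2. All benign dogs lay more than 1 log2 below healthy dog 1 in 8 of them, beside 14.7% of all genes, and 0 lay beyond 1 log2 of healthy dog 2 in either direction. SSR4, a subunit of the translocon-associated complex named after its values were seen, lay at 5.26, 5.48 and 5.55 in the benign dogs, at 8.35 in healthy dog 1 and at 5.02 in healthy dog 2.

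Lymphocyte genes had no member that held. Of 11 T and NK cell genes and 3 B and plasma cell genes tested, 0 lay more than 1 log2 beyond each healthy dog. Over all genes 1.02% lay above and 1.33% below, so a count of 0 in so few genes does not set them apart. Of the 11 T and NK cell genes, 5 were higher without overlap (12.3% of all genes were, and 216 of the 1263 with a symbol). More than 1 log2 above healthy dog 1 lay 4 (11.8%), and above healthy dog 2 lay 1 (2.07%). Their median difference was 1.05 log2, beside 0.006 over all genes. CTLA4, an inhibitory receptor of T cells, lay at -1.71, -3.04 and -0.06 against -5.06 and -3.70. CD28 was well above background on 0 healthy arrays and at least 1.13-fold higher in benign tumours. The groups overlapped in CD4 and CD8A, with differences of 0.012 and 0.589. In the housekeeping list of 4, GAPDH lay at 6.14, 6.65 and 7.64 against 5.49 and 5.33, and RPL13A, a ribosomal protein named after its values were seen, at 6.72, 6.70 and 6.91 against 8.74 and 6.96. The tumours also differed among themselves. Benign dog 1 lay more than 2 log2 above both other benign dogs in 512 genes and below them in 434, benign dog 2 in 549 and 388, and benign dog 3 in 398 and 807.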

How the data were processed

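Expression was measured on 1-colour Agilent canine arrays. The authors' scanner files, made with Feature Extraction 11.5.1.1 per the labels, hold intensity values (processed signal, median signal, background median). The deposited table of values equals the median signal as scanned, and 0 columns per sample were left out. Here the log2 processed signal was centred on the 75th percentile of each array, outlier spots and 1417 control spots were left out, and arrays a and b of a dog were averaged. Each gene took its brightest probe. Genes whose probe passed the scanner's background call in 4 or more of 10 arrays were tested, 27088 of 36619. No spot was saturated.

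Groups were fitted with limma 3.58.1 in R 4.3.3 (data.table version 1.17.8), with Benjamini-Hochberg adjustment over all genes. A gene held against a healthy dog when all benign dogs lay more than 1 log2 beyond it. Symbols came from RefSeq transcripts matched to UU_Cfam_GSD_1.0, which named 2353 of 43603 probes. Coordinates and sequences were not used here. Named genes were those called, the 15 widest gaps in each direction outside the pancreas lists, the first 3 and the widest held members of each list, and genes and regulators the study names. The members and lists were chosen with earlier results of these data known. The scripts were tested on simulated data. The labels call the duplicates biological, whereas the study's methods describe duplicate arrays, so whether they are separate extractions is not settled. The number of dogs limits the precision. Alternatives covered scaling, background, probes, filters, slides, tests and each dog left out.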

Additional observations from a re-analysis of the deposited data

How the results depend on the processing

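The count of 9 called genes was 9 with median centring, 11 with an intensity trend, 6 and 9 with the a or the b arrays, and it moved in other settings. It was 30 with quantile normalization, 53 with normexp background at an offset of 50 (52 of them lower), 14 with the table of median signals, 16 with probes well above background on all 10 arrays, and 80 with all 10 arrays and the dog as a random block (14 higher). It was 0 without a filter on dim probes, 0 with the mean over probes, 0 with the slide as a fixed block, and 0 with the dog number as a replicate block. An unpaired t-test, in place of the paired one that the methods name, gave 1333 unadjusted, 0 with Benjamini-Hochberg and 0 with Storey. The numbers do not pair the dogs, since tumours and healthy tissue came from different dogs. Deviations of same-numbered dogs correlated at -0.0481 and 0.00459. With 2 healthy dogs the deviation of 1 is the negative of the other, so these correlations cannot show a lack of pairing. Leaving out 1 dog gave 0 to 498 called genes, with 498 without healthy dog 2 and 0 without any other dog; a lone healthy dog was taken to vary like the benign dogs.

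Of the genes held against each healthy dog, those higher came to 98 with normexp (85 of them shared with the 275) and 103 with the table of median signals (97 shared), and to 127 with probes measured on all arrays, where those lower came to 187. The slides that hold both groups gave 1356 and 999 higher and 1237 and 1782 lower, over fewer dogs. A margin of 0 gave 3331 higher and 3203 lower and a margin of 2 gave 38 and 138. Leaving out 1 dog gave 491 to 3193 higher and 500 to 3981 lower, since a missing dog can no longer break the rule, with 3193 and 3981 without healthy dog 2. Under 7 settings of scaling, background, probes and arrays, 76 of the 275 and 204 of the 360 held every time. Of the 275, 72 were well above background on benign arrays only, and 0 of these stayed without overlap in all 7 settings. The log2 differences turned for CCR1 (-0.86 with normexp, -0.36 with the table), IL13 (-0.55 and -0.078), SLC45A2 (-0.30 and -0.001), CASQ2 (-0.17 with normexp) and SLC23A2 (-0.23 with normexp), all dim in healthy tissue, and the cause was not tested. The median over all genes shifted to -0.45 with normexp and -0.33 with the table.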
